A study of Mus musculus with 4 samples.

Results

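Tubulin isotypes are the closely related gene products from which microtubules are built, and their RNAs are described here in the pseudopodia and the cell bodies of migrating fibroblasts. The family was taken as 10 named genes, namely Tuba1a, Tuba1b, Tuba1c and Tuba4a for α-tubulin and Tubb2a, Tubb2b, Tubb3, Tubb4b, Tubb5 and Tubb6 for β-tubulin. Every probe set whose platform annotation gave exactly 1 gene symbol from that list was used. This rule found 18 probe sets of 45101 on the array, from 8 of the 10 genes, where 18194 genes in all had a probe set with 1 symbol. Tuba1b and Tuba1c had no probe set with 1 symbol, and 5 probe sets that carried a member's symbol beside another gene's symbol were not used. The rule itself uses no measured value.

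The study measured RNA of NIH/3T3 cells, an established mouse fibroblast line, on 4 Affymetrix Mouse430_2 arrays. Pseudopodia (2 arrays, replicates 1 and 2) were compared with cell bodies (2 arrays, replicates 1 and 2). Both fractions came from cells treated alike: starved of serum overnight, spread for 2 h on a fibronectin-coated porous membrane, then exposed for 1 h to 150 ng/ml lysophosphatidic acid (LPA), a serum lipid that attracts fibroblasts, placed below the membrane. Pseudopodia pushed through the pores were scraped from the underside and cell bodies from the upper side after fixation in 0.3% formaldehyde for 10 min. For all 4 samples the labels also list 10% calf serum and reversal of the crosslinks at 70 °C for 45 min. Unstimulated cells were not analysed here, and the labels call the samples independent without saying how the cultures were separated, so p-values measure only the spread between these arrays.

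Microtubules are hollow polymers of α- and β-tubulin dimers, along which motor proteins carry vesicles, mitochondria and RNA granules towards the cell edge. The isotypes are nearly identical in their globular part and differ mainly in a short C-terminal tail, which enzymes modify by removing or adding tyrosine and glutamate. Microtubules that have lost the terminal tyrosine are long-lived, and in fibroblast protrusions they hold RNA granules near their ends. Cells also adjust tubulin RNA to the amount of free dimer: in human cells the factor TTC5 recognises newly made tubulin on the ribosome and has its RNA degraded.

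The defining fibroblast RNAs were bright in both fractions. The signals of 7 fibroblast markers summed to 101444.1 and 104359.6 in pseudopodia, against 103638.3 and 105372.5 in cell bodies, although Thy1 stayed between 5.7 and 56.3. Within these sums, both pseudopodia arrays were below both cell body arrays for Col1a1 and Col1a2, and above them for Vim and S100a4. Markers of 8 neuronal genes summed to 169.3 and 151.1 in pseudopodia and 125.4 and 148.9 in cell bodies, with no single value above 54.2. The brightest single marker reached 208.3 for blood, 442.4 for epithelium and 352.7 for adipocytes and muscle. Median signals were 31.0 and 33.3 on the pseudopodia arrays and 29.8 and 33.2 on the cell body arrays. The 3' to 5' signal ratio of the beta-actin control, a sign of RNA integrity, was 1.77 and 3.41 in pseudopodia and 1.55 and 1.89 in cell bodies. For Gapdh it was 0.960 and 1.01 in pseudopodia and 0.919 and 0.946 in cell bodies. Replicate 1 arrays of both fractions were scanned on one day and replicate 2 arrays on another.

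No tubulin probe set passed the test between pseudopodia and cell bodies, although the values spread to both sides of 0. Of the 18 probe sets, 16 had a mean signal at or above the median of all probe sets and were tested, and 0 of these 16 had an adjusted p under 0.05. The test was limma's moderated statistic over 22519 probe sets with Benjamini-Hochberg adjustment, which called 4.47% of all probe sets in either direction, 1.09% higher and 3.38% lower. At an unadjusted p under 0.05 stood 3 of the 16, all higher in pseudopodia, against 22.2% of all probe sets (8.68% higher). Differences below are log2 of pseudopodia over cell body on signals scaled to a common array mean with 32 added, ± SE of the fit, with n = 2 arrays per fraction throughout. Because the authors scaled each array to the same total, a difference is a share of the RNA of a fraction, and fewer cells or protrusions cannot be told apart from less RNA in each. The added 32 makes the fold of dim probe sets an understatement. Intervals are unadjusted 95% intervals of the same fit.

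**Figure D1:**
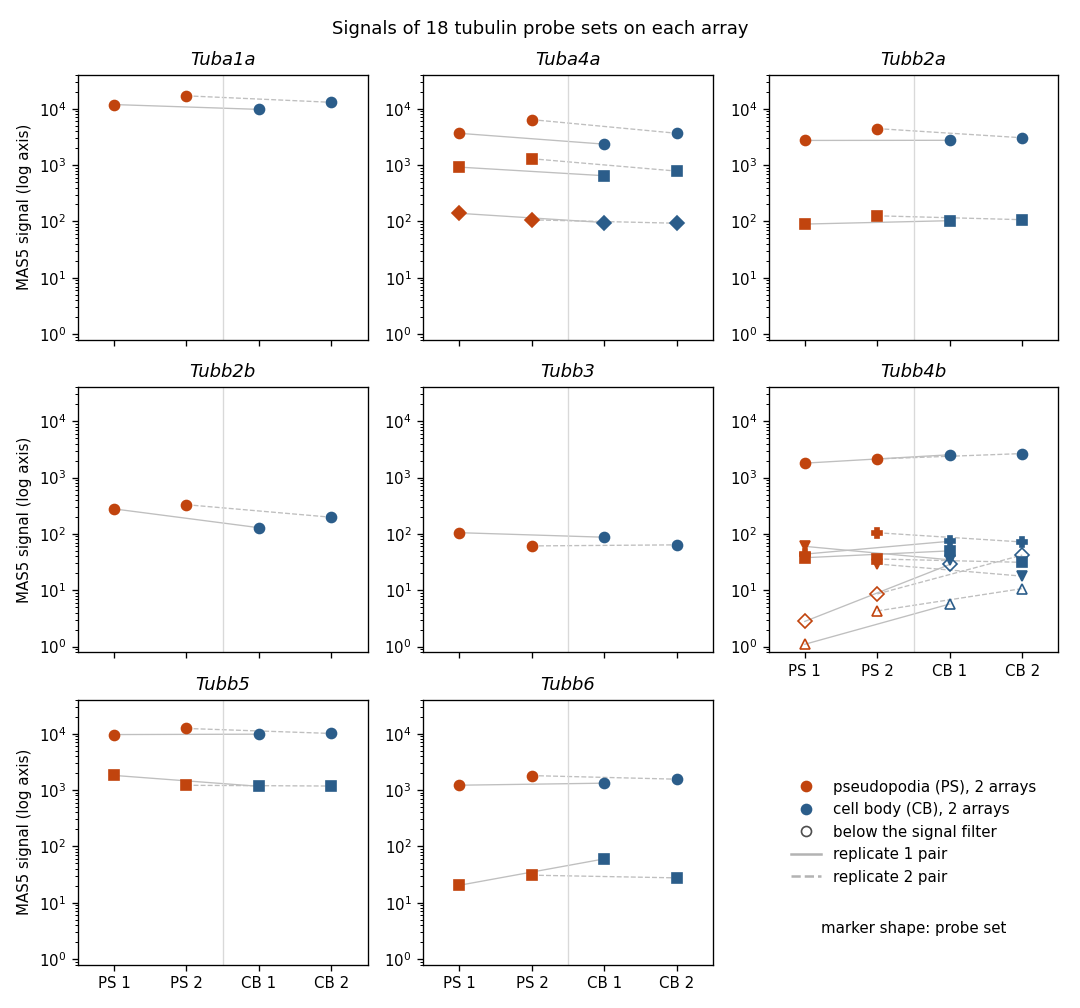
Deposited MAS5 signal (log axis) of each of the 18 tubulin probe sets on each array, with pseudopodia arrays (PS) left of cell body arrays (CB) and grey lines joining arrays of the same replicate number. The brightest Tuba4a probe set was at 3661.0 and 6402.0 in pseudopodia and at 2353.1 and 3665.9 in cell bodies; open markers are the 2 Tubb4b probe sets below the signal filter.

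Among the α-tubulins, Tuba4a had the highest values towards pseudopodia. Tuba4a encodes the α-tubulin that is made without the C-terminal tyrosine found on other α isotypes. Its brightest probe set, 1417373_a_at, had signals of 3661.0 and 6402.0 in pseudopodia, against 2353.1 and 3665.9 in cell bodies. Each pseudopodia array was above the cell body array of its own replicate, but pseudopodia replicate 1 lay just under cell body replicate 2, so the groups overlapped. The difference was 0.72 ± 0.31, a 1.65-fold level with an interval from 1.01-fold to 2.69-fold, and limma's adjusted p was 0.222. The second Tuba4a probe set, 1417374_at, had signals of 919.8 and 1295.3 in pseudopodia and 647.5 and 782.1 in cell bodies. Here both pseudopodia arrays exceeded both cell body arrays, with a difference of 0.61 ± 0.24 (limma adjusted p = 0.192). The dimmest, 1417375_at, had 139.3 and 106.7 in pseudopodia and 95.5 and 92.9 in cell bodies. Its groups did not overlap either, and its difference was 0.33 ± 0.26 (limma adjusted p = 0.519). All 3 Tuba4a probe sets thus had positive values in both replicate pairs, at 0.63 and 0.80, 0.50 and 0.72, and 0.48 and 0.17 for replicates 1 and 2 in the order above.

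Tuba1a, an α isotype abundant in developing neurons and also made in dividing cells, was measured by 1 probe set, 1418884_x_at. It had 11863.7 and 16934.9 in pseudopodia, against 9737.0 and 12998.5 in cell bodies. The replicate 2 arrays were the brighter ones in both fractions, so that the groups overlapped while each pair had a positive value (0.28 and 0.38). The difference was 0.33 ± 0.21, with an interval from 0.894-fold to 1.77-fold and a limma adjusted p of 0.403. After quantile normalization it was -0.01. The x suffix of the probe set marks probes that can bind RNAs of related genes, so signal of other α-tubulin RNAs may be counted in it. Over the 4 α-tubulin probe sets the values ran from 0.33 to 0.72 with a median of 0.47. Of these probe sets 3 belong to Tuba4a, so the median mostly describes that gene.

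The β-tubulins had values on both sides of 0, from -0.48 to 0.86 over 12 tested probe sets, with a median of 0.07 and 8 of 12 positive. Tubb2b, an isotype best known from neurons, stood highest of all the members. Its probe set 1452679_at had 277.9 and 329.6 in pseudopodia, against 128.8 and 197.5 in cell bodies. Both pseudopodia arrays were above both cell body arrays, by 1.02 in replicate 1 and 0.69 in replicate 2. The difference was 0.86 ± 0.27, a 1.81-fold level with an interval from 1.18-fold to 2.80-fold. It had an unadjusted p of 0.0135 in the limma fit, and its adjusted p of 0.114 missed the threshold. Of all tested probe sets, 96.6% had a lower difference.

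Tubb2a, a close relative of Tubb2b, did not show the same separation. Its brighter probe set, 1427347_s_at, had 2737.9 and 4437.0 in pseudopodia and 2753.6 and 3054.1 in cell bodies. Only pseudopodia replicate 2 stood out, with pair values of -0.01 and 0.54 and a difference of 0.26 ± 0.24 (limma adjusted p = 0.575). The dimmer probe set, 1427838_at, had 89.8 and 125.9 in pseudopodia and 103.1 and 107.4 in cell bodies, a difference of 0.02 ± 0.27. The s suffix of the brighter one marks probes shared by more than 1 transcript.

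Tubb3, the isotype used as a marker of neurons, had low signals in these fibroblasts. It had 105.1 and 61.2 in pseudopodia, against 87.3 and 63.9 in cell bodies. The replicate 1 arrays were the higher ones in both fractions and the groups overlapped, with a difference of 0.09 ± 0.33 (limma adjusted p = 0.907).

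Tubb4b, a widely made isotype that is also used in cilia, was the member whose brightest probe set leaned towards the cell body. Probe set 1423642_at had 1801.0 and 2137.6 in pseudopodia, against 2536.6 and 2663.3 in cell bodies. Both pseudopodia arrays were below both cell body arrays, with pair values of -0.49 and -0.32. The difference was -0.40 ± 0.18, a 0.756-fold level with an interval from 0.563-fold to 1.02-fold, and limma's adjusted p was 0.248. The other 5 Tubb4b probe sets were dim, with no signal above 104.8, and only 1456078_x_at among them had a positive value. Probe sets 1456078_x_at, 1456470_x_at and 1438622_x_at stood at 0.50 ± 0.46, -0.07 ± 0.38 and -0.08 ± 0.38.

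The 2 probe sets of Tubb4b below the filter were both lower in pseudopodia on every array. Probe set 1439416_x_at had 2.8 and 8.6 in pseudopodia, against 28.7 and 42.1 in cell bodies, and was at least 1.5-fold lower in each of the 4 pairs of a pseudopodia and a cell body array. In a fit without the filter on dim probe sets, which called 0.391% of all probe sets, its difference was -1.25 ± 0.42 (limma adjusted p = 0.254). Probe set 1456031_at had 1.1 and 4.3 in pseudopodia and 5.7 and 10.7 in cell bodies, and stood at -0.37 ± 0.25 in that fit (limma adjusted p = 0.587). Signals this low are close to the noise of the MAS5 method.

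Tubb5, the most widely made β-tubulin of non-neuronal cells, had nearly equal signals in both fractions on its brighter probe set. That probe set, 1416256_a_at, had 9633.8 and 12366.8 in pseudopodia, against 9786.5 and 10079.1 in cell bodies. The pair values were -0.02 and 0.29, and the difference was 0.14 ± 0.16. Its interval, from 0.846-fold to 1.43-fold, was the narrowest on the log2 scale among the members (limma adjusted p = 0.677). A change of 1.5-fold in either direction lies outside the interval of this fit, but the value moved with the processing. It was -0.21 after quantile normalization, -0.18 ± 0.19 with the hybridization controls as the scale, and 0.32 without pseudopodia replicate 1. The second probe set, 1455719_at, had 1815.4 and 1212.1 in pseudopodia and 1162.2 and 1176.2 in cell bodies. Its groups did not overlap, but pseudopodia replicate 1 alone was far from the rest, with pair values of 0.64 and 0.04 and a difference of 0.34 ± 0.24 (limma adjusted p = 0.444).

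Tubb6, a β isotype made in many tissues outside the nervous system, also overlapped between the fractions. Its probe set 1416431_at had 1216.4 and 1801.5 in pseudopodia, against 1322.3 and 1556.2 in cell bodies, a difference of 0.05 ± 0.24 (limma adjusted p = 0.937). The dim probe set 1446353_at had 20.4 and 30.8 in pseudopodia and 60.0 and 27.6 in cell bodies. Only cell body replicate 1 was high there, and the difference was -0.48 ± 0.45 (limma adjusted p = 0.581).

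**Figure D2:**
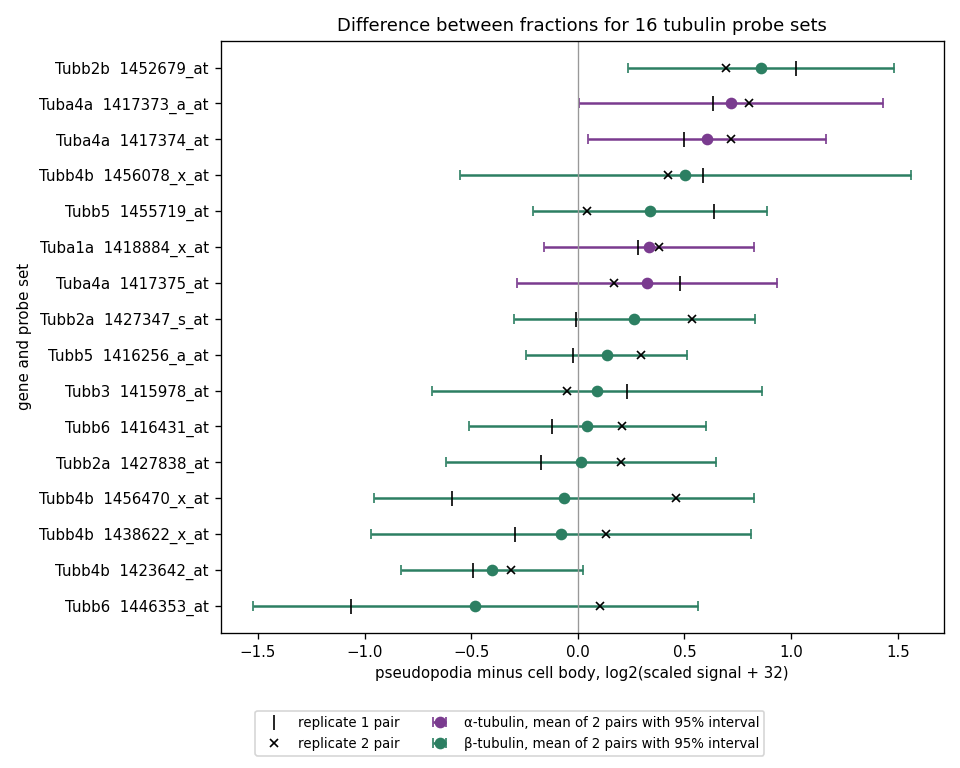
Difference between pseudopodia and cell bodies for the 16 tested tubulin probe sets, as log2 of the scaled signal with 32 added; circles are means with unadjusted 95% intervals of the limma fit, and bars and crosses are the replicate 1 and replicate 2 pairs. Tubb2b and 2 Tuba4a probe sets have intervals above 0, and the values run from -0.48 to 0.86.

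As a family, the tubulin RNAs stood slightly towards pseudopodia without separating as a group. The median difference was 0.20 over the 16 tested probe sets and 0.11 over all 18, against -0.03 over all tested probe sets on the array. It was 0.11 in replicate 1 and 0.25 in replicate 2, against -0.01 and -0.04 over all probe sets. Positive values were found in 12 of the 16, where 47.7% of all tested probe sets were positive. The groups did not overlap in 5 of the 16, with 4 higher (Tubb2b, 2 of Tuba4a and 1 of Tubb5) and 1 lower (Tubb4b), against 53.0% of all tested probe sets, 24.7% higher and 28.3% lower. None of the 16 differed at least 1.5-fold between every pseudopodia array and every cell body array, against 10.9% of all. Both replicate pairs had the same sign in 8 of the 16, against 69.5% of all tested probe sets. Among the 5630 brightest tested probe sets were 8 of the 16, with a median of 0.30, where the median of all 5630 was 0.10.

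**Figure D3:**
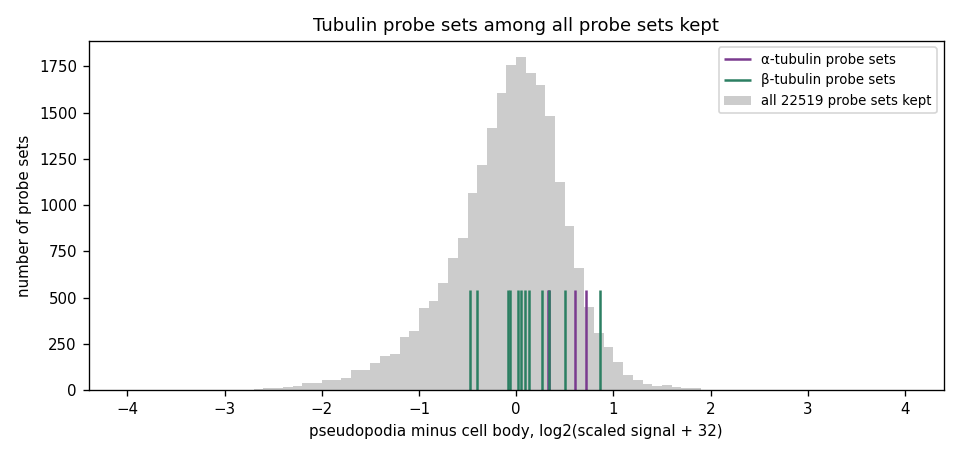
Histogram of the difference between pseudopodia and cell bodies (log2 of the scaled signal with 32 added) for all 22519 tested probe sets, with vertical lines at the 4 α-tubulin and 12 β-tubulin probe sets. The tubulin lines lie between -0.48 and 0.86. The lowest, of Tubb6, has 21.9% of all tested probe sets below it, and the highest, of Tubb2b, has 96.6%.

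The family's position depended on single arrays and on the scaling. Without pseudopodia replicate 1, the limma fit called 5 of the 16 higher, where it called 17.9% of all probe sets (5.92% higher). These were the 2 brighter Tuba4a probe sets at 1.12 and 0.85, Tubb2b at 0.98, Tuba1a at 0.59 and the brighter Tubb2a probe set at 0.61, with adjusted p from 0.00075 to 0.0375. In that fit pseudopodia replicate 2 stands alone, and the 1 residual degree of freedom comes from the cell bodies. The fit takes the equivalent of 28.7 from the spread over all probe sets. Without pseudopodia replicate 2, limma called 0 of the 16, where it called 13.2% of all probe sets, and 3 had an unadjusted p under 0.05, against 25.4% of all. In that fit the family's median was 0.02, and Tuba4a and Tubb2b stood at 0.32 and 0.74 on their brightest probe sets. Pseudopodia replicate 2 also had the highest beta-actin ratio, 3.41, whose part in these values was not tested. With the hybridization controls as the scale, the median of all probe sets moved to -0.31 and that of the family to -0.11, 0.21 above it.

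The replicate number marks a shared scan day and hybridization day, so the fit was repeated with that number as a block. The block called 3 of the 16 higher, where it called 19.3% of all probe sets (7.31% higher and 11.9% lower). The 3 were Tuba4a on 1417373_a_at (limma adjusted p = 0.00114) and 1417374_at (adjusted p = 0.0251) and Tubb2b (adjusted p = 0.0113). That fit leaves 1 residual degree of freedom and takes the equivalent of 22.7 from the spread over all probe sets.

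The change of one isotype relative to another is free of any single scaling factor per array, though not of quantile normalization. The signal of each member's brightest tested probe set was divided by that of every other within each array, giving 28 pairs of genes. Such a ratio has no meaning as a relative amount of RNA, because probe sets bind with different strength, but its change between arrays does. The Tuba4a signal over the Tubb4b signal was 2.03 and 3.00 in pseudopodia, against 0.928 and 1.38 in cell bodies. Each pseudopodia array was above each cell body array, 2.19-fold in the replicate 1 pair and 2.18-fold in the replicate 2 pair. For Tubb2b over Tubb4b the ratio was 3.04-fold higher in replicate 1 and 2.08-fold higher in replicate 2. For Tuba1a over Tubb4b it was 1.72-fold and 1.62-fold higher. All of these ratios have the same Tubb4b signal as denominator, so they are not separate results.

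These ratios were singled out after their values were seen and were not tested, since with 2 arrays per fraction the smallest p of an exact permutation test is 0.333. The ratio did not overlap between fractions in 16 of the 28 pairs, which share members, against 51.7% of all pairs of genes on the array. It differed at least 1.5-fold in both replicates in 5 of the 28, against 25.8% of all pairs. By contrast, the ratio of Tubb5 to Tubb6 was 7.92 and 6.87 in pseudopodia and 7.40 and 6.48 in cell bodies, overlapping between the fractions.

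Around the isotypes, 96 genes that fold, modify, nucleate, bind, sever or regulate tubulin were looked up in 7 lists. A tested probe set with 1 symbol was found for 78 of them, each gene represented by its brightest one with p adjusted over 10960 genes. Of the 78, 3 were higher in pseudopodia and 0 lower (limma), against 2.96% of all genes called (1.03% higher and 1.93% lower), and their median difference was 0.07 against 0.01 for all genes. At an unadjusted p under 0.05 stood 13 higher and 4 lower of the 78, against 21.2% of all genes (9.84% higher and 11.4% lower). With the replicate block, 11 were higher and 3 lower, against 18.4% of all genes called (8.21% higher and 10.2% lower). These were 4 higher among the folding genes, 4 higher and 2 lower among the modifying genes, 2 higher in the autoregulation list, and 1 higher and 1 lower among the microtubule-associated proteins.

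Of 13 folding cofactors and prefoldin subunits, which bring new tubulin into dimers, 1 was higher and 0 lower. It was Tbca, a cofactor that binds β-tubulin, with 7346.2 and 6932.5 in pseudopodia and 3599.3 and 4295.8 in cell bodies. The groups did not overlap, and the difference was 0.86 ± 0.16 (limma adjusted p = 0.0456). Its 3 dimmer probe sets stood at 1.00, 0.88 and 0.92. Of 15 genes for modifying tubulin, 1 was higher and 0 lower. It was Svbp, not an enzyme itself but the partner of the vasohibins, which remove the terminal tyrosine of α-tubulin. Svbp had 3617.0 and 4425.6 in pseudopodia and 2131.9 and 2090.3 in cell bodies, a difference of 0.92 ± 0.18 (limma adjusted p = 0.0463). Both pseudopodia arrays of Svbp were well above both cell body arrays. Vash2, the only vasohibin with a tested probe set, stood at -0.38 ± 0.25 (limma adjusted p = 0.426). Of the 15 genes, 9 had positive values, and the median was 0.24. Low values without a call were those of Atat1, at -2.14 ± 0.53 (limma adjusted p = 0.0745), and Hdac6, at -0.89 ± 0.31 (limma adjusted p = 0.152). Atat1 had 2.6 and 43.4 in pseudopodia and 120.2 and 141.3 in cell bodies, but its dimmer probe sets stood at 0.14 and -0.09.

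Of 12 genes of tubulin RNA autoregulation, which hold Ttc5, Scaper and subunits of the CCR4-NOT deadenylase, 1 was higher and 0 lower. It was Scaper, which in human cells links TTC5 to the deadenylase, with 182.5 and 194.7 in pseudopodia and 40.5 and 71.7 in cell bodies. The difference was 1.54 ± 0.30 (limma adjusted p = 0.0463), on its only tested probe set. The calls of Tbca, Svbp and Scaper were close to the threshold. All 3 ended on the hybridization controls, with 8 as the added constant, without the variance trend, without the filter and without either cell body array. The calls of Svbp and Scaper also ended after median centring, and that of Tbca after quantile normalization. Over the alternatives run, limma's adjusted p reached 0.356 for Tbca, 0.341 for Svbp and 0.338 for Scaper, while their differences stayed between 0.54 and 0.98, 0.60 and 1.06, and 1.08 and 1.86.

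The other 4 lists had no gene past the limma threshold, and Map4 and Mark2 were the 2 of their 38 tested genes with an unadjusted p under 0.05, against 21.2% of all genes. Among 5 tested other tubulin genes, Tubb4a, a β isotype of the brain, stood at 0.54 ± 0.31 and Tuba8 at 0.23 ± 0.44. Both were dim, with no signal above 113.5 for Tubb4a and 59.8 for Tuba8. Among 11 genes of the γ-tubulin ring complex, which starts new microtubules, 4 had positive values and the median was -0.20. Pericentrin (Pcnt), a scaffold of the centrosome, stood at -0.57 ± 0.26 on its brightest probe set but at 0.69 on its dimmer one, and Tubgcp3, a subunit of the complex, at -0.52 ± 0.24. Of 10 stathmins and severing proteins, Fignl1 stood at -0.73 ± 0.36 and Katnal1, a severing protein like katanin, at -0.72 ± 0.42, with 0.12 on its dimmer probe set. These 2 probe sets were dim as well, with no signal above 58.1 for Fignl1 and 84.6 for Katnal1 on its brightest probe set. Of 12 structural microtubule-associated proteins and their kinases, Mark2, a kinase that detaches such proteins from microtubules, stood at -1.01 ± 0.28 and Map4, the main such protein of non-neuronal cells, at 0.75 ± 0.21 (limma adjusted p = 0.0940 and 0.0986). The dimmer probe sets of Mark2 stood at -0.58 and -0.21, and those of Map4 lay on both sides of 0, at 0.94 and -1.11. Both genes passed the limma threshold with the replicate block, Mark2 lower (adjusted p = 0.00106) and Map4 higher (adjusted p = 0.00298), and without pseudopodia replicate 1 (adjusted p = 0.00107 and 0.00675). The other 3 of these 4 lists had no call with the block.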

How the data were processed

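The values are intensities deposited by the authors, a linear MAS5 signal for each probe set on each array (MAS5 per the submitters' processing notes). Its version and scaling target are not given in the sources used here. Each array had a 2% trimmed mean of 250.0, so the authors had scaled the arrays alike. Per the file headers, all arrays were of 1 chip lot and 1 scanner, with 2 scan days that follow the replicate number. Platform annotation gave 1 gene symbol to 34958 probe sets, several to 932, and 9211 were unnamed here. Gene positions, probe sequences and protein sequences were not used here.

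Each array was multiplied to reach a trimmed mean of 500, and log2 was taken after adding 32. Of 45037 probe sets other than the 64 controls, the 22519 whose mean reached the median were kept. The fractions were tested by limma (version 3.58.1, R version 4.3.3; lmFit, eBayes with a variance trend, two-sided, no block), with Benjamini-Hochberg adjustment over all probe sets kept, or over genes for the pathway lists, and a threshold of 0.05. No set test was run. On simulated data (20 runs, 200 of 22519 probe sets changed), a change of 1 log2 unit was found in 3.05% of cases, a change of 2 log2 units in 52.2%, and 4.74% of the calls were false. The noise was drawn from the spread that limma had fitted, so the share of false calls was largely set in advance. Fewer probe sets were changed than the 1007 called in the data, so the shares found do not give the power in the data.

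The text names all members, and per pathway list up to 4 genes past the threshold or, where none passed, the 2 with the largest statistic. Vash2 is given besides, as the vasohibin beside Svbp, and Atat1 and Hdac6 as low values of the same list. The members, lists, tests and alternatives were chosen with earlier results of these data known. Same-numbered arrays share a scan day, a hybridization day and a project entry in the file headers, while the module entry differs between them. Over probe sets, which are not independent, the change from replicate 1 to replicate 2 in pseudopodia had a correlation of r = 0.240 with that in cell bodies. Alternatives were other scalings, added constants and filters, no variance trend, the replicate block, and leaving out each array.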

Additional observations from a re-analysis of the deposited data

How the results depend on the processing

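Counts are given as higher and lower in pseudopodia. Over all probe sets, 245 and 762 were called, against 41 and 1194 on the hybridization controls (3.32% of calls higher, against 24.3%), 39 and 137 without the filter on dim probe sets, and 0 and 0 without limma's variance trend (4493 at an unadjusted p under 0.05, against 4995 with it). The replicate block gave 1647 and 2691. Leaving out 1 array at a time gave 0 to 1334 and 0 to 2696, with 0 whenever a cell body array was left out. In such fits the lone array is assumed to vary like the other fraction. For the tubulin isotypes, 0 and 0 were called under every alternative except the replicate block (3 higher) and leaving out an array (0 to 5 higher, with 5 without pseudopodia replicate 1). Their median of 0.20 became -0.11 on the hybridization controls, where 7 of 16 were positive, and 0.33 over the 9 probe sets at or above the 75th percentile of signal, and lay between 0.016 and 0.27 without 1 array. It was 0.14 over the 11 probe sets without the s or x suffix. Tuba4a, on each of its 3 probe sets, and Tubb2b kept positive values, and the brightest Tubb4b probe set kept negative ones, under every alternative in which they were tested. Of the pathway genes, 3 and 0 were called, against 1 higher after median centring, 0 and 1 on the hybridization controls, 0 higher with 8 as the added constant, without the filter and without the variance trend, 1 lower with a larger added constant, 11 and 3 with the replicate block, and 0 to 10 and 0 to 4 without 1 array. The cause of these shifts was not tested. The number of arrays limits the precision.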
